A study of Mus musculus with 2 samples.

Results

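The long noncoding RNAs Malat1, Neat1, Rmrp, Gas5, Snhg1, Snhg12, Kcnq1ot1 and Meg3 were examined in RNA-seq libraries of small hepatocytes (SHs) and mature hepatocytes (MHs) of the mouse. The 8 RNAs were taken as a fixed list of gene symbols, chosen with earlier results of these data known. All 8 were found among the 43280 symbols in the counted reads. There was 1 library of each kind of cell. Both came from the livers of the same healthy C57BL6 mice, 20 weeks of age according to the labels, whereas the methods give a younger range for the animals used in cell isolation. The isolation used 3 mice, and whether their cells were pooled in each library is not given in the sources used here. MHs were the cells that sedimented first after collagenase perfusion and were cleared of dead cells on Percoll. They were not sorted. SHs, which the labels describe as intrinsic progenitors of hepatocytes, were recovered from the remaining supernatant and sorted by FACS as cells with ICAM-1 and without CD31, CD45 or EpCAM. Poly(A) RNA was sequenced on an Ion Proton system.

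Most of these RNAs act in the nucleus and encode no protein. Malat1 gathers in nuclear speckles, where splicing factors are stored, and Neat1 is the scaffold around which paraspeckles assemble. Rmrp is the RNA of RNase MRP, an enzyme that cuts the precursor of ribosomal RNA. Gas5, Snhg1 and Snhg12 are host genes whose introns release small nucleolar RNAs (snoRNAs), the guides for chemical modification of ribosomal RNA. Kcnq1ot1 and Meg3 are transcribed from 1 parental chromosome only. Kcnq1ot1 comes from the paternal allele and silences its neighbours, and Meg3 comes from the maternal allele of the Dlk1-Dio3 domain.

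Counted reads numbered 16979136 for MHs and 42356444 for SHs. A floor was set at 3 reads, and folds were not taken at face value from counts at or under it. These 3 reads were 0.177 reads per 1000000 counted reads (RPM) in MHs and 0.0708 RPM in SHs. With 1 library per condition there was no replicate error and no test. Intervals are 95% Clopper-Pearson intervals for ratios and exact Poisson intervals for levels. Neither takes in anything but the error of counting, and no molecular identifiers were used. Hepatocyte markers were abundant in both libraries. The 10 hepatocyte markers, among them Alb and Cps1, summed to 78468 RPM in MHs and 83085 RPM in SHs, and none was at 0.

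Of the 8 RNAs, Rmrp, Malat1 and Neat1 carried 99.2% of the reads in both libraries, and the sequences of these RNAs are shown first because their ends differ from those of ordinary messenger RNA. Rmrp is short and unspliced, is made by RNA polymerase III and has no poly(A) tail. Its gene lies at chr4:43492783-43493063 on the minus strand of mm10, 281 bases in all. Capitals mark the stretch that exons of Ccdc107, a protein-coding gene on the opposite strand, also cover.
Rmrp: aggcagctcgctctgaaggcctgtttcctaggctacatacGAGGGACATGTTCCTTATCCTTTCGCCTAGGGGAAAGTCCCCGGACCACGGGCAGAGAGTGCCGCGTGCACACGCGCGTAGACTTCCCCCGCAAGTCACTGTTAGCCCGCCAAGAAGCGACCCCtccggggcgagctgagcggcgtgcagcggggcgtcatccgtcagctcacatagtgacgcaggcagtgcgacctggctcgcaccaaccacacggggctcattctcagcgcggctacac
The 3′ ends of Malat1 and of the long form of Neat1 are not made by ordinary polyadenylation. RNase P cuts in front of a structure that resembles a transfer RNA, and U-rich and A-rich stretches in the RNA itself fold into a triple helix that protects the new end. The stretch of Malat1 at chr19:5795982-5796070 and the last 110 bases of Neat1 at chr19:5824708-5824817, both on the minus strand, are printed so that they can be compared. Capitals mark the runs of at least 11 bases that both stretches hold.
Malat1: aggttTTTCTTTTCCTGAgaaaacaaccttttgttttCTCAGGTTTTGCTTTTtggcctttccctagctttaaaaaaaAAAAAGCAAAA
Neat1: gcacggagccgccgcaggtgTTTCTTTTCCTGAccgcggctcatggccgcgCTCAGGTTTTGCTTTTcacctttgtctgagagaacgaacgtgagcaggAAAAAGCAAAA
The shared runs were 13, 16 and 11 bases long, in the same order in both RNAs. The last of them, AAAAAGCAAAA, ended the annotated long transcript of Neat1 and lay 292 bases before the annotated end of Malat1. It occurred on the sense strand of at least 1 transcript of 376 of the 55341 genes in the annotation, or 0.679%. Directly downstream of Neat1, with 0 bases between, the annotation places Gm27702, a small RNA of 56 bases at chr19:5824652-5824707.
Gm27702: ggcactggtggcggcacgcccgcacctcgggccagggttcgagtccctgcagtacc
Gm27702 had 39 reads in MHs against 73 in SHs, which was 2.30 and 1.72 RPM. Its log2 ratio of -0.42 had an interval from -0.99 to 0.19, so a difference was not detectable at this depth. This gene was chosen after its values were seen.

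The starts of the snoRNA host genes are shown because genes of this kind often begin with a run of C and T, the terminal oligopyrimidine tract of genes for the translation machinery. RefSeq promoter sequences (GRCm38.p6) were matched for 6 of the 8 RNAs. The printed stretches run from 30 bases before the annotated start to the first 30 bases of the transcript, on the plus strand, and capitals mark the longest unbroken run of C and T between 10 bases before and 15 bases after the start. They lie at chr1:161035136-161035195, chr19:8723457-8723516 and chr4:132308648-132308707.
Gas5: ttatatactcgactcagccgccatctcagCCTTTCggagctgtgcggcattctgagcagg
Snhg1: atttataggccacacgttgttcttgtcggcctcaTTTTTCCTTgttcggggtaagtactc
Snhg12: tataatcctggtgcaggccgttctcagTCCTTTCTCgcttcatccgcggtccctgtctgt
The run was 9 bases long in Snhg1 and in Snhg12, a length that 5.87% of the 32851 promoters reached. In Gas5 it was 6 bases, which 24.4% of the promoters reached. The other start annotated for Gas5 had a run of 3 bases, and the promoters of Malat1, Kcnq1ot1 and Meg3 had runs of 2 to 5 bases. A run anywhere in the window was counted, so its length does not show that the transcript begins with it. In Snhg1 the run begins after the annotated start.

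Levels of different RNAs can be compared only per length, so reads were divided by the length of all annotated exons to give reads per kilobase of exon per 1000000 counted reads (RPKM). Division by length does not correct for the selection of poly(A) RNA. Rmrp has no tail, and the ends of Malat1 and of long Neat1 are not made by ordinary polyadenylation. How much of each passed the selection was not tested, so the order is that of the counted reads. On this scale the 8 RNAs spanned a wide range and held the same order in both libraries. Rmrp was the highest, with 12840 RPKM in MHs (interval 12738 to 12942) and 11112 in SHs (11052 to 11172). Malat1 followed with 402 RPKM in MHs and 309 in SHs, and Neat1 with 48.1 and 43.3. Gas5 stood at 6.52 RPKM in MHs and 6.13 in SHs. Snhg12, at 1.20 and 1.03 RPKM, and Snhg1, at 0.932 and 0.907 RPKM, were neighbours whose intervals overlapped in both libraries. The exons of all their transcripts together cover both genes whole, at 2402 and 2969 bases. Bases that some transcripts splice out are therefore counted in these lengths. Kcnq1ot1, whose annotated transcript is unspliced and 93092 bases long, had 0.316 RPKM in MHs and 0.252 in SHs. Meg3 was the lowest, with 0.0326 RPKM in MHs and 0.00653 in SHs. No other neighbours in the order had overlapping intervals. By reads, Rmrp, Malat1 and Neat1 ranked 2, 3 and 4 among the 5297 long noncoding genes of the annotation, and Meg3 ranked 442.

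**Figure D1:**
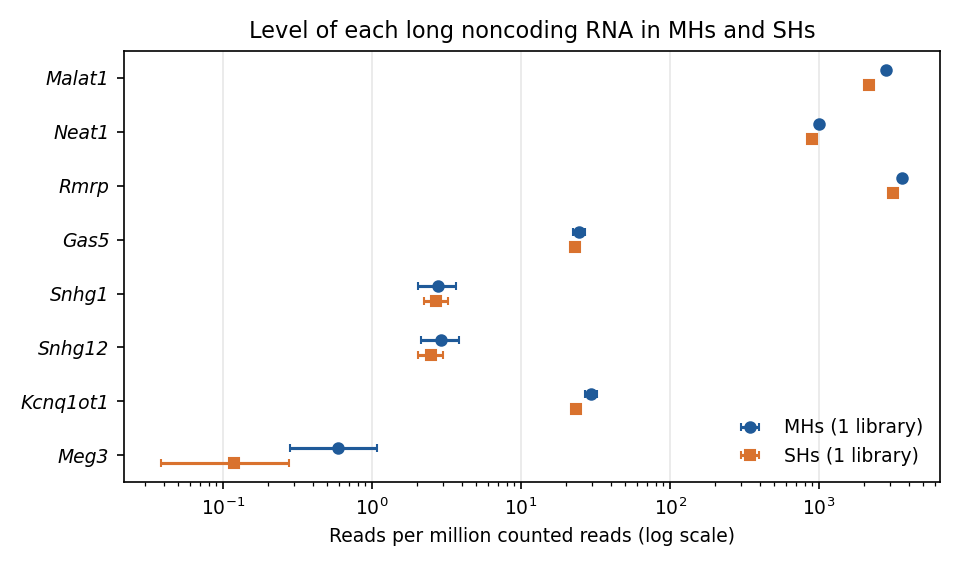
Level of each RNA in the library of MHs (circles) and of SHs (squares) in RPM on a log scale, with exact 95% Poisson intervals. Levels ran from 0.118 RPM for Meg3 in SHs to 3608 RPM for Rmrp in MHs, and the intervals of both libraries overlapped for Gas5, Snhg1 and Snhg12.

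The comparison of SHs with MHs asked whether these RNAs differ between progenitor-like and mature hepatocytes. All 8 had a log2 ratio of SHs over MHs under 0, with a median of -0.22, whereas 48% of the 15521 genes that reached 10 reads in total were under 0 and their median was 0.02. Markers of other liver cells were also lower in the sorted SHs than in the unsorted MHs. Their median log2 ratios were -4.80 for the endothelial, -4.69 for the macrophage and -3.87 for the stellate and mesenchymal list, and the part of these cells in the values of the 8 RNAs was not tested. Only Meg3 was at least 2-fold lower in SHs with an interval wholly under 0, a call made for 4.46% of all these genes. None of the 8 was at least 2-fold higher, against 2% of all genes. The interval lay wholly under 0 for 5 of the 8, namely Malat1, Neat1, Rmrp, Kcnq1ot1 and Meg3, and for 15.5% of all genes. It lay wholly over 0 for 0 of the 8 and for 16.8% of all genes. Such intervals narrow with depth. Among the 696 genes with at least 10000 reads, where Malat1, Neat1 and Rmrp belong, 43% had an interval wholly under 0, and among the 4359 genes with 1000 to 10000 reads, where Gas5 and Kcnq1ot1 belong, 17.7% had. Over the 589 long noncoding genes with at least 10 reads, the median log2 ratio was -0.14, and 56.9% were under 0.

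**Figure D2:**
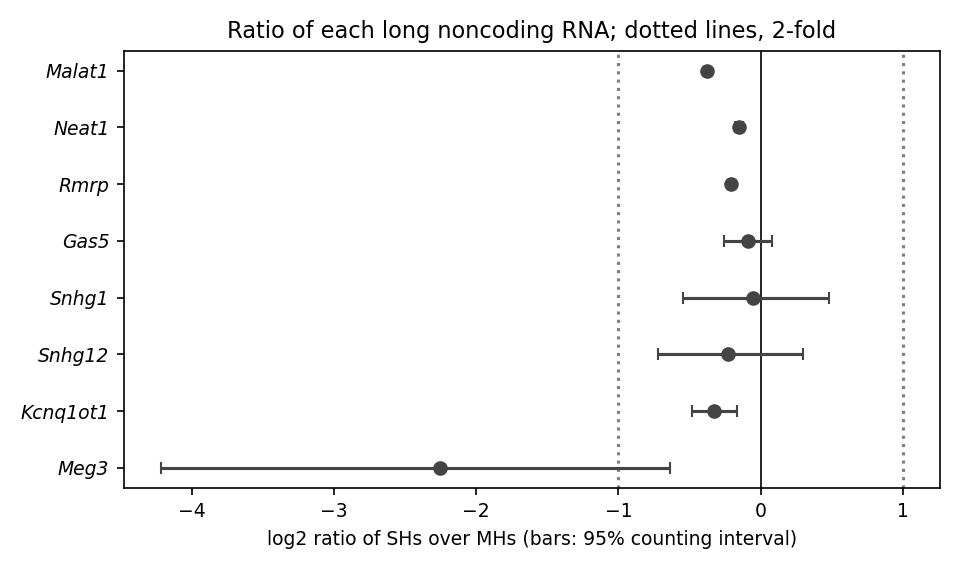
Log2 ratio of SHs over MHs for each RNA, with bars for the 95% counting interval and dotted lines at 2-fold. Meg3 alone lies beyond 2-fold, at -2.25, and the intervals of Gas5, Snhg1 and Snhg12 cross 0.

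Malat1 and Neat1, the RNAs of nuclear speckles and paraspeckles, are neighbours on chromosome 19. Malat1 (chr19:5795690-5802672) had 47628 reads in MHs against 91446 in SHs, or 2805 and 2159 RPM. It was 1.30-fold lower in SHs, giving a log2 ratio of -0.38 (-0.39 to -0.36), and 9.20% of the 696 genes with at least 10000 reads had a lower ratio. As the libraries are of bulk RNA, fewer cells of a type and less RNA per cell cannot be told apart, here or for the other RNAs. Neat1 (chr19:5824708-5845478) had 16955 reads in MHs against 38123 in SHs, or 999 and 900 RPM, giving a log2 ratio of -0.15 (-0.18 to -0.12). Of the same 696 genes, 23.4% were lower than Neat1. The middle 50% of those genes ran from -0.14 to 0.13, so both RNAs lay under that range. The interval of Neat1 reached into it.
The reads of Malat1 were 2.81 times those of Neat1 in MHs and 2.40 times in SHs, a difference of -0.23 on the log2 scale (-0.26 to -0.20). The counts per gene do not separate the short polyadenylated form of Neat1 from the long form. Frmd8, the protein-coding gene nearest to Neat1 at 4223 bases, had 204 reads in MHs against 640 in SHs, giving a log2 ratio of 0.33 (0.10 to 0.57).

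The genes for proteins of the bodies that these RNAs occupy had median log2 ratios near that of all genes. Only their RNA was measured. Of 14 genes for paraspeckle proteins, 0 were past 2-fold, 2 had an interval under 0 and 3 over 0. Their log2 ratios ran from -0.62 to 0.49, with a median of 0.03. Hnrnpk, an RNA-binding protein needed to make the long form of Neat1, had 2013 reads in MHs against 5453 in SHs, giving a log2 ratio of 0.12 (0.04 to 0.19). Nono, a core paraspeckle protein, had 0.03 (-0.10 to 0.16), and Tardbp, another RNA-binding protein, also had 0.03 (-0.11 to 0.17). Of 12 genes for nuclear speckle proteins, 0 were past 2-fold, 4 had an interval under 0 and 3 over 0, and their median was -0.03. The speckle scaffold proteins Son and Srrm2 had log2 ratios of -0.08 (-0.14 to -0.02) and 0.17 (0.09 to 0.26). The splicing factor Srsf5 had the lowest ratio of this list, -0.29 (-0.37 to -0.20).

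Rmrp, printed above, had 61261 reads in MHs against 132258 in SHs, which was 3608 and 3122 RPM. It was 1.16-fold lower in SHs, giving a log2 ratio of -0.21 (-0.22 to -0.19), and 17.4% of the genes with at least 10000 reads were lower. Ccdc107, whose exons cover part of Rmrp on the other strand, was counted at 57 reads in MHs and 137 in SHs. Rpph1, the RNA of the related RNase P, which shares most of its proteins with RNase MRP, went the other way. It had 32475 reads in MHs against 110288 in SHs, or 1913 and 2604 RPM, giving a log2 ratio of 0.45 (0.43 to 0.46).
The reads of Rmrp were thus 1.89 times those of Rpph1 in MHs and 1.20 times in SHs, a difference of -0.65 on the log2 scale (-0.68 to -0.63). Of the 12 genes of RNase MRP and RNase P with at least 10 reads, Rmrp included, 0 were past 2-fold and their median was 0.06. The protein subunit Pop5 had 251 reads in MHs against 629 in SHs, and its difference on the log2 scale was 0.00 (-0.21 to 0.22). All 10 protein subunits in this list had intervals that included 0.

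Although the libraries were made from poly(A) RNA, other RNAs without a poly(A) tail were abundant in both. The 10 such genes that were found summed to 44682 RPM in MHs and 42575 RPM in SHs. Their log2 ratios ran from -0.45 to 0.45, with a median of -0.08, 5 intervals under 0, 4 over 0 and 0 genes past 2-fold. Gm22405 and Gm26191, synonyms of the 7SL RNA genes Rn7s1 and Rn7s2, had log2 ratios of -0.05 and -0.11. Rn7sk, the RNA that holds back the elongation factor P-TEFb, had 4342 RPM in MHs and 3676 RPM in SHs, giving a log2 ratio of -0.24 (-0.25 to -0.23). The ratios of Rmrp and Rn7sk differed by 0.03 on the log2 scale (0.01 to 0.05). How RNA without a tail, Rmrp included, passed the selection was not tested. Whether it did so alike in both libraries was not tested either.

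**Figure D3:**
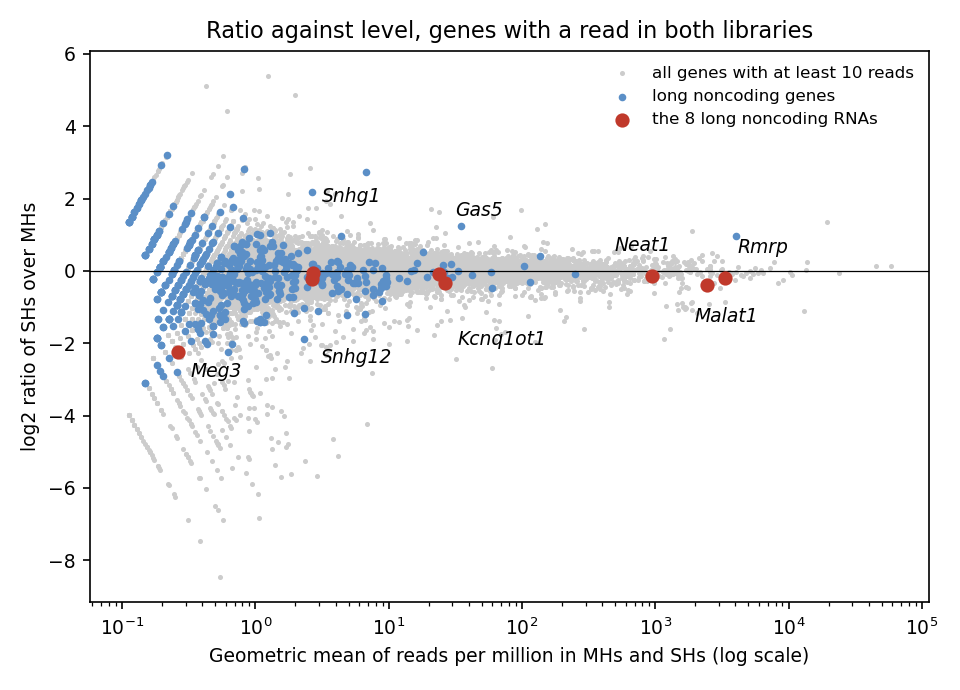
Log2 ratio of SHs over MHs against the geometric mean level of every gene with at least 10 reads and a read in both libraries (grey), of long noncoding genes (blue) and of the 8 RNAs (red). Rmrp, Malat1 and Neat1 lie at the high end of the level axis just under 0, and Meg3 lies at the low end, where ratios spread widely.

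The intervals of the snoRNA host genes Gas5, Snhg1 and Snhg12 included 0. Gas5 (chr1:161034422-161038539, plus strand) had 416 reads in MHs against 977 in SHs, or 24.5 and 23.1 RPM, giving a log2 ratio of -0.09 (-0.25 to 0.08). Snhg1 (chr19:8723475-8726443, plus strand) had 47 and 114 reads, or 2.77 and 2.69 RPM, giving a log2 ratio of -0.05 (-0.54 to 0.48). Snhg12 (chr4:132308623-132311024, plus strand) had 49 and 105 reads, or 2.89 and 2.48 RPM, giving a log2 ratio of -0.23 (-0.72 to 0.30). Of the 5886 genes with 100 to 1000 reads, 41.0% had a lower ratio than Snhg1 and 20.7% a lower ratio than Snhg12, which lay under the middle 50% of those genes (-0.18 to 0.20). For Gas5, 23.7% of the 4359 genes with 1000 to 10000 reads were lower, and it too lay under their middle 50% (-0.08 to 0.16). The intervals of Snhg12 and Gas5 reached into these ranges, so the depth does not settle either placement. All 3 intervals, which take in the error of counting only, lay within 2-fold in either direction. Gas5 overlaps Zbtb37 on the opposite strand, which had 51 reads in MHs against 155 in SHs, giving a log2 ratio of 0.28 (-0.18 to 0.77).

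The snoRNAs inside these hosts were counted as genes of their own. The annotation places 9 snoRNA genes in Gas5, of which 7 were among the counted symbols, and all 7 were listed at 0 reads in both libraries. All 8 in Snhg1 were also listed at 0. Of the 4 in Snhg12, Snora44, Snora61 and Snord99 were listed at 0, and Snora16a alone had reads. Among all 1462 snoRNA genes in the counts, 67.8% were listed at 0 in both libraries. Snora16a, a snoRNA of the H/ACA class, lies at chr4:132309464-132309600 on the plus strand, and its ACA box, which the letters ACANNN at the 3′ end describe, is in capitals.
Snora16a: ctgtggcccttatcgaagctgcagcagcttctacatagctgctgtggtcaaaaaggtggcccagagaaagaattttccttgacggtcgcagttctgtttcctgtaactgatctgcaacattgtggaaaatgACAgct
The same form closed 271 of the 1483 snoRNA genes in the annotation, or 18.3%. Snora16a had 9645 reads in MHs against 15477 in SHs, or 568 and 365 RPM, giving a log2 ratio of -0.64 (-0.67 to -0.60). Its reads were 197 times those of its host Snhg12 in MHs and 147 times in SHs, and the difference of -0.42 on the log2 scale had an interval from -0.91 to 0.07.

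Among 21 other snoRNA host genes with at least 10 reads, the median log2 ratio was 0.01, with 3 intervals under 0 and 5 over 0. Snhg18 was the only gene of this list past 2-fold. It had 1 read in MHs and 28 in SHs, which was 3.74-fold higher in SHs with MHs set to 3 reads. The interval of its log2 ratio ran from 0.89 to 8.84. The hosts with the most reads were genes of the translation machinery. The elongation factor gene Eef2 had a log2 ratio of 0.16 (0.14 to 0.18), the ribosomal protein gene Rpl13a 0.11 (0.04 to 0.18), and the initiation factor gene Eif4a2 -0.01 (-0.09 to 0.07).
Spliced transcripts of many snoRNA hosts, Gas5 among them, are degraded by nonsense-mediated decay. Of 10 factors of this pathway, 0 were past 2-fold, 1 had an interval under 0 and 4 over 0, and the median log2 ratio was 0.13. Smg1, the kinase that starts decay, had 954 reads in MHs against 2182 in SHs, giving a log2 ratio of -0.13 (-0.24 to -0.01). Smg5, which binds the phosphorylated Upf1, had 0.02 (-0.13 to 0.17).

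Kcnq1ot1 and Meg3 are the imprinted RNAs of the list. Kcnq1ot1 (chr7:143203458-143296549, minus strand) had 499 reads in MHs against 995 in SHs, or 29.4 and 23.5 RPM. It was 1.25-fold lower in SHs, giving a log2 ratio of -0.32 (-0.48 to -0.17), and 4.50% of the genes with 1000 to 10000 reads were lower. Kcnq1ot1 lies antisense within Kcnq1, and Kcnq1 itself had 2 reads in MHs against 1 in SHs, at or under the floor of 3 reads. The use of strand in the counting is not given in the sources used here, so reads of both strands cannot be told apart.
Among the 10 genes of the Kcnq1 domain, 7 had at least 10 reads. Their median log2 ratio was 0.03, with 1 interval under 0 and 2 over 0. Cd81, a tetraspanin, had a log2 ratio of -0.28 (-0.35 to -0.22), the transporter gene Slc22a18 -0.02 (-0.11 to 0.08), and the histone chaperone gene Nap1l4 0.22 (0.04 to 0.41). Phlda2, which restrains placental growth and is silenced on the paternal chromosome, was past 2-fold higher. It had 1 read in MHs against 18 in SHs, or 2.41-fold higher with MHs set to 3 reads. The interval of its log2 ratio ran from 0.19 to 8.23.

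Meg3 (chr12:109541001-109571726, plus strand) was counted at 10 reads in MHs and 5 reads in SHs, although the latter library was deeper. These were 0.589 RPM (0.282 to 1.08) and 0.118 RPM (0.0383 to 0.275), giving a log2 ratio of -2.25 with a wide interval from -4.22 to -0.64. The call rests on 15 reads, and 6.51% of the 4580 genes with 10 to 100 reads had a lower ratio. The other genes of the Dlk1-Dio3 domain were near the floor in both libraries. Rian, a noncoding RNA downstream of Meg3, had 4 reads in each library, Dio3os had 5 in MHs and 2 in SHs, and Dlk1, which encodes a growth regulator, had 2 and 3. None of the 6 genes reached 10 reads, so the domain has no median.

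Markers of other liver cells were lower in SHs, and their part in the values of Meg3 and the other 7 RNAs was not tested. Of 10 endothelial markers, 10 lay beyond 2-fold on the lower side in SHs, and their sum was 83.8 RPM in MHs and 4.56 RPM in SHs. Of the 9 macrophage markers with at least 10 reads, 8 did, with sums over the list of 18.4 and 1.06 RPM. Of the 9 stellate and mesenchymal markers with at least 10 reads, 9 did, with sums of 27.2 and 2.53 RPM. With genes at 3 reads or fewer set to their bound, the median log2 ratios of these lists were -4.67, -4.06 and -3.43. Dcn, a proteoglycan of mesenchymal cells, had 117 reads in MHs against 2 in SHs, and Kdr, a receptor of endothelial cells, had 226 and 11. Pecam1 and Ptprc, which are among the markers counted as lower, encode CD31 and CD45, which SHs were sorted to lack. In SHs, Lyve1, Marco and Colec11 were at 0, and no marker of these 3 lists was at 0 in MHs. Cholangiocyte markers summed to 21.4 RPM in MHs and 24.4 RPM in SHs, and 3 of the 7 reached 10 reads. Sox9 had a log2 ratio of 0.50 (0.16 to 0.85), whereas Spp1 had -0.33 (-0.63 to -0.02). Epcam, which SHs were sorted to lack, was counted at 6 reads in MHs and 1 read in SHs, and Cftr was at 0 in SHs.

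The other imprinted genes showed no common direction. Of 18 genes, 8 had at least 10 reads, with a median log2 ratio of 0.02, 1 interval under 0 and 3 over 0, and 2 were at least 2-fold higher. Peg10, a paternally expressed gene derived from a retrotransposon, had 20 reads in MHs against 130 in SHs, giving a log2 ratio of 1.35 (0.70 to 2.14). Nnat, which encodes a small membrane protein, had 2 and 35 reads, or 4.68-fold higher in SHs with MHs set to 3 reads. The interval of its log2 ratio ran from 0.85 to 5.91. Gnas, which encodes a G protein subunit, had a log2 ratio of 0.20 (0.15 to 0.26), the receptor gene Igf2r 0.02 (-0.08 to 0.13), and the adaptor gene Grb10 -0.39 (-0.73 to -0.03).

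The list of other long noncoding RNAs, which includes Malat1, Neat1 and Kcnq1ot1, had 14 genes with at least 10 reads. Their median log2 ratio was -0.35, and -0.43 without those RNAs and genes of other lists, with 12 under 0, 7 intervals under 0 and 2 over 0. Jpx, an activator of Xist, was the only one past 2-fold, with 30 reads in MHs against 28 in SHs, giving a log2 ratio of -1.42 (-2.22 to -0.63). Gm26917 had the most reads of the list and went the other way, with 49219 reads in MHs against 241548 in SHs, giving a log2 ratio of 0.98 (0.96 to 0.99).

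**Figure D4:**
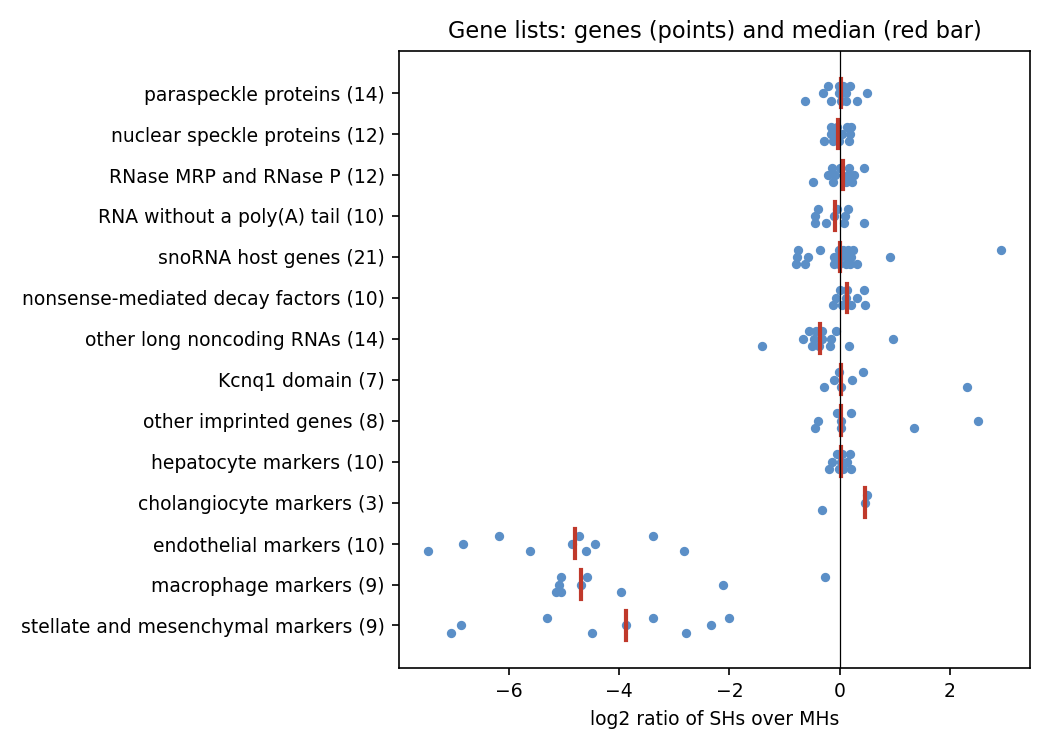
Log2 ratio of SHs over MHs for the genes with at least 10 reads in each list (points), with the list's median (red bar) and the number of genes in brackets. The medians of the lists tied to the long noncoding RNAs lie between -0.35 and 0.13, and those of the endothelial, macrophage and stellate lists lie between -4.80 and -3.87.

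The genes whose levels in both libraries were nearest to each RNA were found by the distance in log2 RPM over the 2 libraries, which is a description only. Nearest to Malat1 was Snord118, the U8 snoRNA, at a distance of 0.0361, with 48642 reads in MHs against 92692 in SHs. Nearest to Neat1 was Apoh, a plasma protein gene, at 0.0409, and nearest to Rmrp was Fgg, a fibrinogen gene, at 0.0769. For Gas5 it was Otud5, at 0.0137, and for Kcnq1ot1 Uck1, at 0.0261. Snhg1 had the same counts as Mapkapk3, and Snhg12 lay 0.0319 from Gm1818. Meg3 shared its counts of 10 and 5 reads with at least 1 other gene, and Dpep2 was the next nearest with 11 and 5 reads.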

How the data were processed

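RNA-seq was performed on 1 library of MHs and 1 library of SHs. For each, the deposited values are read counts per gene symbol, without normalization. As given in the methods, reads were trimmed and mapped in CLC Genomics Workbench with the mm10 genome and expressed as RPKM, and mm10 is also named in the submitters' processing notes. The program, the annotation and the use of strand behind the whole counts are not given in the sources used here, so reads of overlapping genes and of close copies are uncertain.

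Counts were divided by the library total to give RPM, and each ratio of SHs over MHs, on the log2 scale, was taken after adding 0.5 reads to both counts. The calculations used numpy 2.4.6, scipy 1.17.1 and pandas 2.3.3 under Python 3.11.15. Summaries and calls used the 15521 genes that reached 10 reads in total. A gene was called past 2-fold where its 95% interval also lay wholly on that side of 0. Where 1 library had 3 reads or fewer, the fold is a bound computed from 3 reads, which leaves out the error of counting. No p-value was computed. Exon lengths, coordinates and transcripts came from GENCODE M21 (GRCm38, the assembly of mm10), in which 39469 symbols were found, holding 93.3% (MHs) and 91.6% (SHs) of the reads. Alternatives were edgeR's TMM (version 4.0.16, R 4.3.3), DESeq2's size factors (version 1.42.0), totals after removing the top 10 genes by reads or of protein-coding genes alone, 2 added reads, other read minimums, other folds and another length. The calculation was tested on simulated counts.

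The members and the gene lists were chosen with earlier results of these data known. Of 191 list entries, 185 were matched, 13 of them by an older symbol. The genes named were the members, the 3 genes with the most reads in each list, genes past 2-fold, overlapping and nearest protein-coding genes, and the genes nearest in level. Of the cell type markers past 2-fold, only some are named. A few genes that this rule names are not reported here.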

Additional observations from a re-analysis of the deposited data

How the results depend on the processing

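Scaling by TMM, DESeq2's size factors, the total after removing the top 10 genes by reads or the total of protein-coding genes shifted every log2 ratio by -0.023 to 0.032. Under all 4 scalings the 8 RNAs had a ratio under 0 and 5 had an interval wholly under 0. Because their intervals are narrow, the deepest RNAs moved beyond them. Malat1 was -0.40 with TMM, -0.35 without the top 10 genes and -0.35 with protein-coding genes. Rmrp was -0.23, -0.18 and -0.19 under the same settings, and Neat1 was -0.12 without the top 10 genes. The number of RNAs at least 2-fold lower in SHs was 1 with every scaling and at 1.5-fold and 4-fold. It was 0 with a minimum of 200 reads and, chosen after the data were seen, 0 without Meg3. With the longest transcript in place of all exons, Gas5 was 9.59 RPKM in MHs and 9.02 in SHs, and Snhg12 was 1.88 and 1.61. The median of the cholangiocyte list was 0.45 over its 3 genes with at least 10 reads and -1.32 with no read minimum, the ratio that 1 read in each library gives (Krt19 and Krt7), so it sets no direction for the list. No other median moved beyond the interval of its middle genes. No paired analysis was possible because each kind of cell had 1 library. Depth limits Meg3, Snhg1 and Snhg12, and no sampling of animals can be judged.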

Other observations

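The snoRNAs listed at 0 in Gas5, Snhg1 and Snhg12 were set beside all snoRNA genes, a comparison chosen after the values were seen. Of the 635 counted snoRNA genes that lie inside another annotated gene on the same strand, 53.5% were at 0 in both libraries, as were 78.7% of the 827 that do not. The share of reads on all snoRNA genes was 3.46% (MHs) and 2.99% (SHs).

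Other genes of the imprinted lists had too few reads for a call. Mest had 6 reads in MHs and 0 in SHs, Airn had 0 and 5, Igf2 had 0 and 2, and H19 had 0 and 1.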
